A study of Mus musculus with 12 samples.

Results

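The genes described here were 10 ligands of the tumour necrosis factor (TNF) superfamily, of 45703 genes measured. They were taken by symbol from the deposited tables: Tnf, Lta, Ltb, Tnfsf4, Tnfsf8, Tnfsf9, Cd40lg, Tnfsf14, Tnfsf11 and Fasl. The list was chosen with earlier results of these data known. Its counts and medians beside those of all genes are therefore a description of these ligands and no test of the family. Total RNA came from mouse CD4+ T cells of C57BL/6 background, cultured for 3 days with antibodies to CD3 and CD28 and with cytokines that polarize naive cells to T helper 17 (Th17) or T helper 1 (Th1) cells. Wild-type and GLUT3-deficient cells of both lineages made up 4 groups of 3 libraries. The deficient cells carried Slc2a3-fl/fl, floxed alleles of the gene for the glucose transporter GLUT3, and Cd4-cre, a recombinase driven by the Cd4 promoter, which deletes in T cells that have passed through a Cd4-expressing stage, CD8 T cells included. The labels give no age of the mice, do not say which exons are floxed, do not say whether the wild-type mice carried Cd4-cre, and do not say that the replicates were separate animals or cultures. The p-values therefore rest on how much these libraries varied, and part of that may be technical.

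TNF superfamily ligands are mostly membrane proteins that assemble as trimers and cluster their receptors on a neighbouring cell, and some are also shed or secreted. The receptors recruit TRAF adaptors and switch on NF-kappaB, and those with a death domain can start apoptosis. Activated T helper cells use these ligands to help B cells, to costimulate other T cells, to organize lymphoid tissue and to delete activated cells.

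Levels are in TPM, a measure of transcript abundance corrected for exon length and for the depth of the library. Differences were tested with limma on log2(TPM + 1), which understates the change of low genes, and adjusted by the Benjamini-Hochberg method over all genes tested; a gene passed at an adjusted p under 0.05. Recovered reads numbered 16596283 to 28496606 per library. Slc2a3 stood at 44.6 to 379 TPM in Th17 wild type and 3.30 to 18.7 TPM in Th17 deficient libraries, and at 64.7 to 398 and 4.49 to 7.97 TPM in Th1 cells, so it was lower in every deficient library. The summed level of Th17 marker genes was 667 to 1190 TPM in Th17 and 22.5 to 25 TPM in Th1 wild-type libraries, and that of Th1 markers was 85.6 to 146 and 828 to 1400 TPM. Th17 GLUT3-deficient replicate 2 stood apart from the other libraries, with a median absolute log2 difference of 0.62 from its group against 0.136 to 0.424 in the other 11. The numbers of genes that passed in Th17, and the Th17 values of the ligands that rose, are given with and without it.

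Some ligands rose in GLUT3-deficient cells, and none passed as lower when no library was left out. In Th17 cells, 5 of the 10 ligands rose in the deficient libraries (limma), namely Tnfsf9, Tnfsf8, Tnfsf4, Lta and Fasl, where 4.60% of the 13823 genes tested rose. None fell, at either an adjusted or an unadjusted p under 0.05, nor with voom in limma on recovered reads (0 in each), where 2.70% of genes fell. Without the library that stood apart, Tnfsf9, Tnfsf8, Tnfsf4 and Lta (4 ligands) still passed, and Fasl dropped below the filter on low values. In that fit 7.76% of 13321 genes rose and 8.44% fell. Without it the log2 fold change of Lta was 0.99 (limma adjusted p = 0.0121), and those that did not pass were 1.16 for Tnfsf11 (limma adjusted p = 0.0697), 0.49 for Tnf, -0.03 for Tnfsf14, -0.44 for Cd40lg and -0.50 for Ltb. In Th1 cells, 5 of 10 rose, namely Tnfsf9, Lta, Tnf, Fasl and Tnfsf11, where 17.6% of 13487 genes rose. None fell in Th1 either, at an adjusted or unadjusted p under 0.05 or with voom (0 in each), where 13.7% of genes fell. This depends on 1 library: without Th1 wild-type replicate 3, Ltb passed as lower in Th1 (-1.01, limma adjusted p = 0.00272). The median log2 fold change of the 10 ligands was 1.16 in Th17 and 0.54 in Th1, beside 0.04 and 0.03 over all genes tested. Groups of 3 libraries often did not overlap. In Th17, 6 ligands were higher in every deficient than in every wild-type library and 0 lower, beside 18.5% and 18.2% of all genes. In Th1 the counts were 6 and 0, beside 26.3% and 20.8%. Fasl passed the Th17 filter only through its deficient libraries, so its call there adds nothing to the count.

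**Figure D1:**
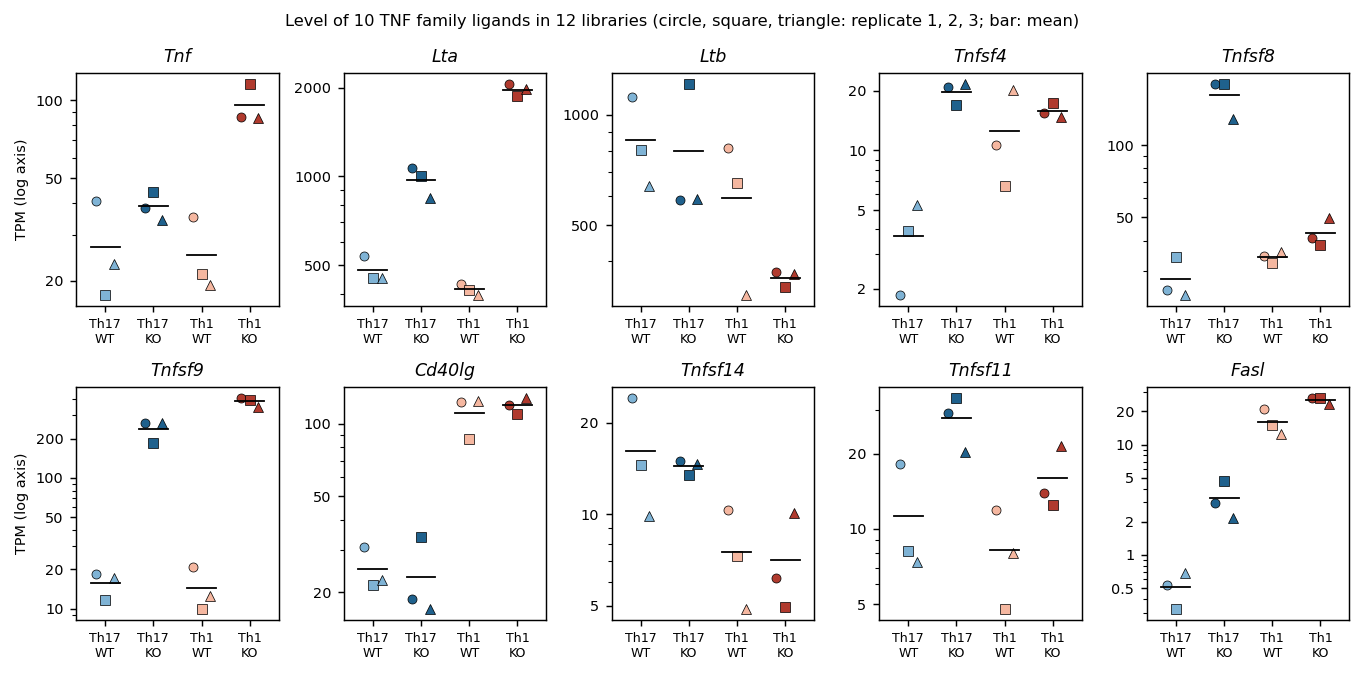
TPM of each ligand (y axis, log scale) in the 4 groups (x axis; WT wild type, KO GLUT3-deficient); each point is 1 library, its shape the replicate number, and the bar is the mean of 3. Tnfsf9 lies at 9.92 to 21 TPM in the wild-type and at 184 to 410 TPM in the deficient libraries, while Ltb and Tnfsf14 overlap between the genotypes of each lineage.

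**Figure D2:**
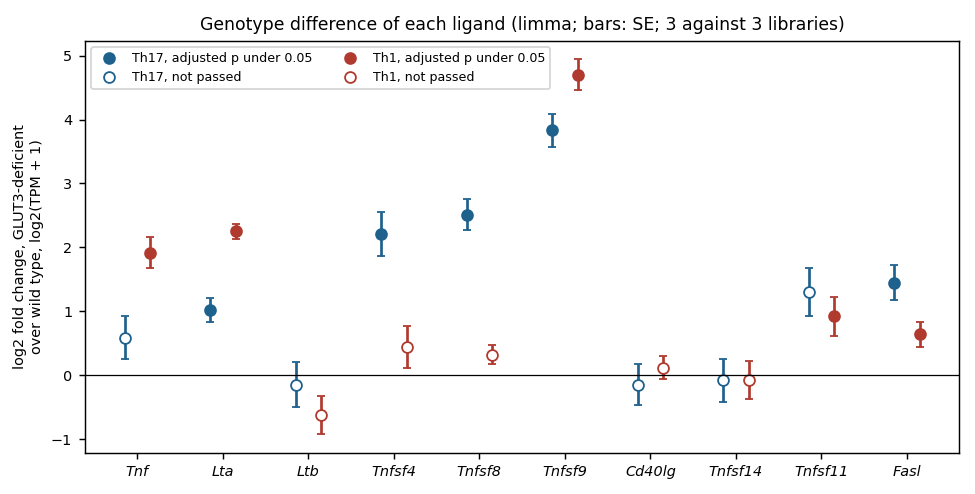
Log2 fold change of GLUT3-deficient over wild type on log2(TPM + 1) (y axis) for each ligand (x axis), with Th17 in blue and Th1 in red, SE bars and 3 against 3 libraries; filled points passed the adjusted p of 0.05. Tnfsf9 has the highest point in both lineages (3.83 and 4.70), and Tnfsf8 passed in Th17 but not in Th1.

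Markers of other cells and of recent activation moved with the genotype, and their counts stand beside the 4.60% of all genes that rose in Th17 and the 17.6% in Th1. Of 6 CD4 helper T cell markers, 1 rose in Th17, with or without the library that stood apart, and 4 rose in Th1. Their summed level was 3260 to 4400 against 3740 to 5030 TPM in Th17 and 3530 to 4090 against 5010 to 5470 TPM in Th1. All 4 gamma delta T cell constant-region genes rose in both lineages: their summed level was 17.3 to 20.1 TPM in Th17 wild type and 165 to 255 TPM in Th17 deficient libraries, and 13.7 to 33.3 and 171 to 268 TPM in Th1. None of them was at 0 in a whole group. Of 6 CD8 and natural killer cell markers tested, 2 rose in Th17 (summed over the 8 listed, 49.1 to 64.2 against 90.7 to 108 TPM), and 4 rose and 2 fell in Th1 (62.1 to 78.5 against 195 to 283 TPM). The 2 that fell in Th1 were the CD8 genes, Cd8a (-0.90, limma adjusted p = 0.00665) and Cd8b1 (-0.76, limma adjusted p = 0.00738). Neither passed in Th17. Of the myeloid markers, 3 of 5 tested rose in Th17 (12.4 to 14.6 against 44.2 to 64.9 TPM) and 2 of 3 in Th1 (10.9 to 14.0 against 25.2 to 46.1 TPM). The 2 in Th1 were Tyrobp and Fcer1g. Lyz2, Cd14, Csf1r, Adgre1 and Itgam were below the filter there, with means of at most 1.06 TPM in the deficient libraries. The Th1 count thus does not show a rise of the myeloid list as a whole. Adgre1 was at 0 in all 3 wild-type libraries of both lineages, and Csf1r in those of Th1. Of 4 platelet and red cell markers, 2 rose in each lineage (6.28 to 14.1 against 40.5 to 90.2 TPM in Th17, 11.1 to 23.2 against 58.5 to 185 TPM in Th1). Of 5 B cell markers tested, 1 rose in Th17 (114 to 153 against 132 to 198 TPM), and none passed in Th1 with limma (0, against 2 at an unadjusted p under 0.05 and 0 with voom; 88.1 to 112 against 68.4 to 475 TPM). Immediate early genes, switched on within the first hours of T cell stimulation, rose in 6 of 16 tested in Th17 and 13 of 17 in Th1. Their summed level was 1520 to 1730 against 2990 to 3490 TPM in Th17 and 1120 to 1470 against 3290 to 3910 TPM in Th1, where Fosb was at 0 in all 3 wild-type libraries. Some of these calls were of genes that reached the filter only with the deficient libraries (Tyrobp and Ppbp in Th17, Eomes and Nr4a3 in Th1), so they add nothing to the counts. Without the library that stood apart, 4 of 4 gamma delta, 3 of 5 CD8 and natural killer, 3 of 4 myeloid, 3 of 4 platelet and red cell, 1 of 4 B cell and 8 of 16 immediate early genes rose in Th17. The part of these cells and genes in the ligand differences was not tested, and in bulk RNA fewer cells of a type cannot be told from less RNA per cell.

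Of the ligands that costimulate other T cells, Tnfsf9 (CD137 ligand, chromosome 17, 57105287 to 57107758, plus strand, GRCm38.p6) differed the most between genotypes. It was 18.3, 11.6 and 17.2 TPM in the Th17 wild-type and 261, 184 and 264 TPM in the Th17 deficient libraries. Its Th1 values were 21, 9.92 and 12.4 TPM in wild type and 410, 394 and 349 TPM in deficient libraries. The groups did not overlap in either lineage. On the log2 scale the genotype difference was 3.83 ± 0.26 (SE) in Th17 (limma adjusted p = 0.00109) and 4.70 ± 0.24 in Th1 (limma adjusted p = 2.23e-05). It passed in 14 of 14 alternative settings in each lineage, and was 4.00 in Th17 without the library that stood apart. The genotype differences of the lineages, compared in the interaction term, differed by -0.87 ± 0.37 (limma adjusted p = 0.705). The libraries do not mark the strand, and Gm11110, on the minus strand, overlaps Tnfsf9. Gm11110 was at 30.7 to 50.1 TPM in Th17 and 22.7 to 32.4 TPM in Th1 wild type, and at 13.9 to 24.2 and 12 to 20.4 TPM in the deficient libraries, so it lay lower where Tnfsf9 lay higher.

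Tnfsf8 (CD30 ligand, chromosome 4, 63831202 to 63861508, minus strand) rose in Th17 and did not pass in Th1, and the difference between the lineages passed its own test. It was 25, 34.2 and 23.7 TPM in Th17 wild type and 180, 179 and 128 TPM in Th17 deficient libraries. Th1 libraries held 34.4, 32.4 and 35.8 TPM in wild type and 41.0, 38.2 and 49.9 TPM in deficient libraries; these do not overlap, but the gap is small. The genotype difference was 2.51 ± 0.24 in Th17 (limma adjusted p = 0.00267; 2.43 without the library that stood apart) and 0.32 ± 0.15 in Th1 (limma adjusted p = 0.152). The interaction was 2.19 ± 0.28 (limma adjusted p = 0.00465) and passed in 19 of 19 alternatives.

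Tnfsf4 (OX40 ligand, chromosome 1, 161395438 to 161418206, plus strand) was low in Th17 wild type and rose there. It was 1.86, 3.94 and 5.33 TPM in Th17 wild type and 20.8, 16.9 and 21.7 TPM in Th17 deficient libraries, which do not overlap. In Th1 cells the values were 10.6, 6.63 and 20.3 TPM in wild type and 15.4, 17.3 and 14.7 TPM in deficient libraries, where the groups overlap. The log2 fold change was 2.21 ± 0.35 in Th17 (limma adjusted p = 0.015; 2.31 without the library that stood apart) and 0.44 ± 0.33 in Th1 (limma adjusted p = 0.336). Leaving out wild-type replicate 2 or 3, or deficient replicate 1 or 3, ended the Th17 call (adjusted p 0.0526 to 0.0872). In Th1, wild-type replicate 3 was above all 3 deficient libraries, and without it the fold change was 0.83 (adjusted p = 0.0248). The interaction was 1.77 ± 0.51 (limma adjusted p = 0.252).

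Cd40lg (CD40 ligand, chromosome X, 57212143 to 57224042, plus strand), through which helper T cells license B cells and dendritic cells, differed between the lineages and did not pass between the genotypes. It was 30.7, 21.5 and 22.5 TPM in Th17 wild type and 18.7, 33.7 and 17.0 TPM in Th17 deficient libraries. Values in Th1 cells were 123, 86.0 and 124 TPM in wild type and 119, 110 and 128 TPM in deficient libraries. All 6 Th1 libraries lay above all 6 Th17 libraries, and the genotypes overlapped in both lineages. The genotype log2 fold change was -0.15 ± 0.32 in Th17 (limma adjusted p = 0.808) and 0.12 ± 0.18 in Th1 (limma adjusted p = 0.652). Both values changed sign in some of the fits that left out 1 library.

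Lta, Tnf and Ltb lie next to each other on chromosome 17 within 11.1 kb, with no annotated gene between them: Ltb at 35194507 to 35196305 on the plus strand, Tnf at 35199367 to 35202007 and Lta at 35203165 to 35205578 on the minus strand. The microRNA gene Mir6974 lies within Lta and Mir6973a within Ltb, and how reads in these overlaps were assigned is not given in the sources used here. Lymphotoxin alpha is secreted as a homotrimer that binds TNF receptors, and with lymphotoxin beta it forms a membrane heterotrimer that binds the lymphotoxin beta receptor. The 3′ untranslated regions of Tnf and Lta hold AU-rich sequence, the kind that decay factors such as Zfp36 bind. Their 30-base windows with the most copies of TTATTTATT are shown because both genes rose in Th1, where Ltb did not pass. The label 3′ end stands for this region. The windows lie before the last bases of the genes, which are at 35199367 for Tnf and 35203165 for Lta. The capitals mark each copy, in GENCODE M21 transcripts on GRCm38, and the search was chosen after the values were seen.
Tnf 3′ end, chr17:35199679-35199708, minus strand: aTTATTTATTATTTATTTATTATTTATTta
Lta 3′ end, chr17:35203404-35203433, minus strand: tatggagagaaaagttaagTTATTTATTta
Tnf held 5 copies and Lta 1 in the longest 3′ untranslated region, and the other 8 ligands held 0. Among those with 0 were Tnfsf9, Fasl and Tnfsf11, which also rose in Th1, and Tnf did not pass in Th17. Whether this word bears on the levels was not tested. At least 1 copy was found in 7.66% of 21020 genes and at least 2 in 1.88%. The 250 bases before the RefSeq start site (GRCm38.p6) of Tnf and of Ltb, its neighbour that did not pass in Th1, are given next, with matches to the searched motifs in capitals.
Tnf, chr17:35202008-35202257, minus strand: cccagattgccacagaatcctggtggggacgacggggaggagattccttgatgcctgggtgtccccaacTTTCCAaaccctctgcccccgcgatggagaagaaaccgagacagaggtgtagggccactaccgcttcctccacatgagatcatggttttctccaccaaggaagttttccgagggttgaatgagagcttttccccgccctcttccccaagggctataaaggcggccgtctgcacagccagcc
Ltb, chr17:35194257-35194506, plus strand: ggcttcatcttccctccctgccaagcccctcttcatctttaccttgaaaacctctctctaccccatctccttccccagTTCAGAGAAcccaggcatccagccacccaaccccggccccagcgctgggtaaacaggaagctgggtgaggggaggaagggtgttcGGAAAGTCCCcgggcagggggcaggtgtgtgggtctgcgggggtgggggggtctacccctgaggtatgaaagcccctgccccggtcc
The motifs were searched on both strands of the 300-base windows given for 7 of the 10 ligands. They were NF-kappaB by name, the NFAT core TGGAAA, AP-1 TGANTCA, the GAS element TTCNNNGAA and the T-box word TCACAC. They occurred in 8.46%, 21.4%, 7.81%, 8.3% and 14.5% of 32851 such windows. Tnf held 1 NFAT core, read on the other strand as TTTCCA. Ltb held 1 NF-kappaB match and 1 GAS element. Lta held 2 GAS elements, but the start site used for it lies inside the gene's outer bounds, as does that of Tnfsf8, so their windows are not shown. Tnfsf14 held 1 NFAT core, 1 AP-1 and 1 T-box word, and no searched motif was found in the windows of Tnfsf8, Tnfsf11 and Fasl.

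Lta (lymphotoxin alpha) rose in both lineages and more in Th1. It was 536, 450 and 452 TPM in Th17 wild type and 1069, 1002 and 845 TPM in Th17 deficient libraries. In Th1 it was 432, 412 and 395 TPM in wild type and 2063, 1868 and 1985 TPM in deficient libraries. The 4 groups did not overlap at all. On the log2 scale the genotype difference was 1.02 ± 0.19 in Th17 (limma adjusted p = 0.0224) and 2.25 ± 0.12 in Th1 (limma adjusted p = 2.23e-05). The interaction was -1.24 ± 0.20 (limma adjusted p = 0.0176). The Th1 call held in 14 of 14 alternatives, but the other calls did not. The Th17 call was lost with median-of-ratios scaling and without wild-type replicate 2 or 3 or deficient replicate 1 or 3 (adjusted p 0.0584 to 0.145), at fold changes of 0.94 to 1.11. The interaction was lost with that scaling, with voom, and without Th17 wild-type replicate 3, Th1 wild-type replicate 2 or 3, or any of the 3 Th1 deficient libraries (adjusted p 0.0521 to 0.0792).

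Tnf, the founding cytokine of the family, rose in Th1. It was 40.6, 17.6 and 23.2 TPM in Th17 wild type and 38.3, 44.2 and 34.4 TPM in Th17 deficient libraries, where the groups overlap. Its Th1 values were 35.2, 21.2 and 19.2 TPM in wild type and 86.2, 116 and 85.6 TPM in deficient libraries, which do not overlap. The genotype difference was 1.92 ± 0.24 in Th1 (limma adjusted p = 0.000643, passed in 14 of 14 alternatives) and 0.59 ± 0.33 in Th17 (limma adjusted p = 0.306). The interaction was -1.34 ± 0.42 (limma adjusted p = 0.357), so a difference between the lineages was not shown.

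Ltb (lymphotoxin beta) did not pass in either lineage. It was 1119, 804 and 641 TPM in Th17 wild type and 587, 1216 and 592 TPM in Th17 deficient libraries. Th1 libraries held 811, 653 and 323 TPM in wild type and 373, 339 and 369 TPM in deficient libraries. The highest Th17 deficient value came from the library that stood apart, and the lowest Th1 wild-type value lay below every deficient one. The log2 fold change was -0.15 ± 0.35 in Th17 (limma adjusted p = 0.827) and -0.62 ± 0.30 in Th1 (limma adjusted p = 0.141). Without the library that stood apart the Th17 value was -0.50 (adjusted p = 0.189). Without Th1 wild-type replicate 3 the Th1 value was -1.01 (adjusted p = 0.00272). Between Ltb and Lta, TPM ratios (Lta over Ltb) were 0.479, 0.561 and 0.705 in Th17 wild type and 1.82, 0.824 and 1.43 in Th17 deficient libraries. In Th1 they were 0.533, 0.631 and 1.22, against 5.53, 5.51 and 5.38.

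**Figure D3:**
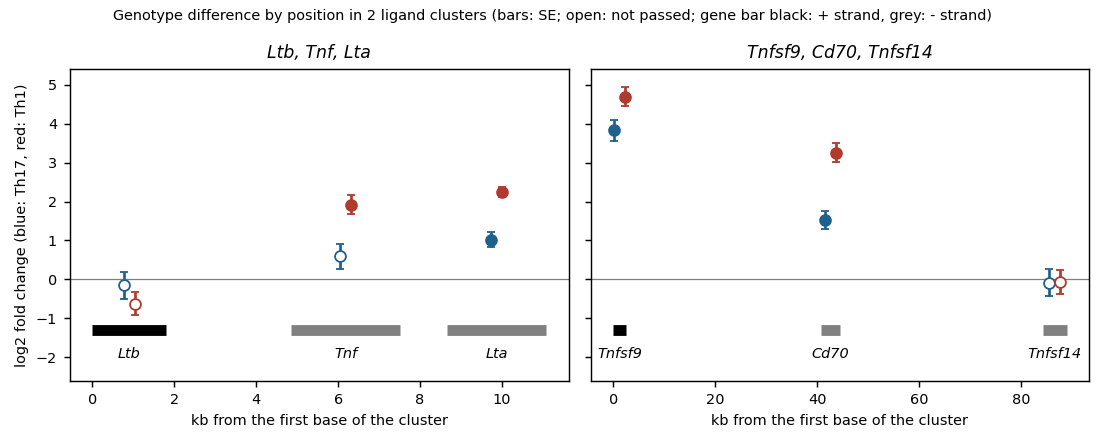
Log2 fold change of GLUT3-deficient over wild type with SE (y axis; blue Th17, red Th1, open points did not pass) at the position of each gene (x axis, kb from the first base of the cluster; gene bars black for the plus and grey for the minus strand). Within 11.1 kb, Lta passed in both lineages, Tnf in Th1 and Ltb in neither; within 88.9 kb, Tnfsf9 and Cd70 passed in both and Tnfsf14 in neither.

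Tnfsf14 (LIGHT, which binds the herpesvirus entry mediator and the lymphotoxin beta receptor) lies on chromosome 17 (57189474 to 57194181, minus strand) in a stretch of 88.9 kb that starts with Tnfsf9 and has Cd70 in the middle. It was 24.2, 14.5 and 9.85 TPM in Th17 wild type and 15, 13.5 and 14.6 TPM in Th17 deficient libraries. In Th1 cells the values were 10.3, 7.29 and 4.87 TPM in wild type and 6.16, 4.95 and 10.1 TPM in deficient libraries. The genotypes overlapped in both lineages. On the log2 scale the genotype difference was -0.08 ± 0.34 in Th17 (limma adjusted p = 0.916) and -0.07 ± 0.30 in Th1 (limma adjusted p = 0.875). Cd70, a costimulatory ligand that was not among the 10, went from 1.09 ± 0.192 (SD, n = 3) to 5.08 ± 0.902 TPM in Th17 and from 2.66 ± 1.04 to 33.4 ± 5.87 TPM in Th1. Its log2 fold change was 1.53 ± 0.23 in Th17 (limma adjusted p = 0.0135; 1.5 without the library that stood apart) and 3.26 ± 0.24 in Th1 (limma adjusted p = 7.59e-05). In Th17 it reached the filter only with the deficient libraries.

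Tnfsf11 (RANK ligand, chromosome 14, 78277446 to 78308043, minus strand) drives osteoclast formation and lymph node development. It was 18.2, 8.15 and 7.39 TPM in Th17 wild type and 29.1, 33.5 and 20.4 TPM in Th17 deficient libraries. Values in Th1 cells were 11.9, 4.77 and 7.97 TPM in wild type and 13.9, 12.5 and 21.4 TPM in deficient libraries. The deficient libraries lay above every wild-type library in both lineages. The genotype difference was 1.30 ± 0.38 in Th17 (limma adjusted p = 0.0892) and 0.92 ± 0.31 in Th1 (limma adjusted p = 0.0499). Both lie near the threshold. The Th17 value passed with the replicate number as a block (limma adjusted p = 0.0443) and with all 12 libraries in the model (limma adjusted p = 0.0304). The Th1 call was lost at a pseudocount of 0.5, with no filter, with all 12 libraries, and without wild-type replicate 2 or 3 or any of the 3 deficient libraries (adjusted p 0.0511 to 0.176).

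Fasl (Fas ligand, chromosome 1, 161780691 to 161788495, minus strand), the membrane ligand that triggers apoptosis through Fas, was lowest in Th17 wild type and highest in Th1 deficient cells. It was 0.532, 0.323 and 0.691 TPM in Th17 wild type, from 11, 7 and 17 reads, and 2.93, 4.67 and 2.16 TPM in Th17 deficient libraries, from 73, 62 and 66 reads. In Th1 it was 20.9, 15.2 and 12.5 TPM in wild type and 26.2, 26.6 and 23.5 TPM in deficient libraries. The 4 groups did not overlap. The log2 fold change was 1.45 ± 0.27 in Th17 (limma adjusted p = 0.0235) and 0.64 ± 0.20 in Th1 (limma adjusted p = 0.0363). The Th17 value ran from 0.57 with a pseudocount of 5 to 2.54 with voom, and its call was lost with no filter and without any of the 3 wild-type libraries (adjusted p 0.0596 to 0.129). It could not be tested without any one of the deficient libraries or with a filter of 5 TPM. The Th1 call was lost with no filter, with median-of-ratios scaling, with all 12 libraries in the model, and without wild-type replicate 2 or 3 or any of the 3 deficient libraries (adjusted p 0.0596 to 0.115). Of 5 Th1 markers, 1 rose in the Th17 deficient libraries (Ifng, 4.20, limma adjusted p = 0.00211), where 4.60% of all genes rose. Without the library that stood apart 2 rose (Ifng and Tbx21), where 7.76% of all genes did. In the Th1 deficient libraries 3 rose and 1 fell, beside 17.6% and 13.7% of all genes. The part of these markers in the Fasl difference was not tested.

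Summed over the 10 ligands, the level was 1815, 1366 and 1203 TPM in Th17 wild type and 2222, 2727 and 1938 TPM in Th17 deficient libraries. Its Th1 values were 1511, 1249 and 955 TPM in wild type and 3155, 2926 and 3035 TPM in deficient libraries. Lta and Ltb made up most of it. On average Ltb held 57.9% of the sum in Th17 and 46.6% in Th1 wild type, and 33.9% and 11.9% in the deficient groups. Lta held 33.4% and 34.3% in wild type, and 42.8% and 64.9% in the deficient groups. The share of Tnfsf9 went from 1.10% to 10.7% in Th17 and from 1.16% to 12.6% in Th1. Shares of a sum move against each other, so a smaller share of Ltb does not show a lower level.

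**Figure D4:**
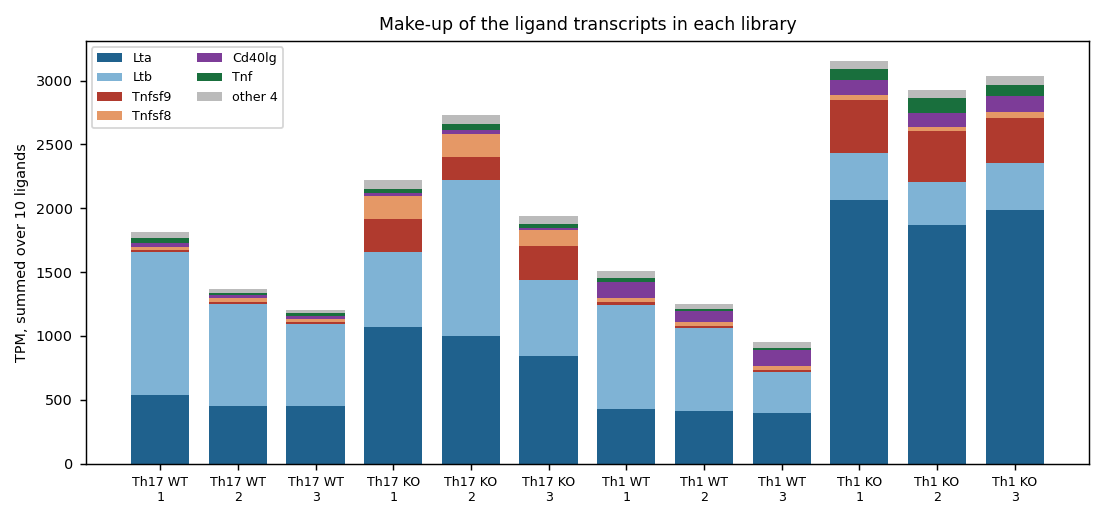
TPM summed over the 10 ligands (y axis) in each library (x axis; WT wild type, KO GLUT3-deficient), stacked by ligand. Lta and Ltb make up most of each bar, and Lta holds 64.9% of the Th1 deficient sum against 34.3% in Th1 wild type.

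Within wild type, 3 ligands were lower in Th17 than in Th1 cells and 0 higher, in a model of all 12 libraries where 1.78% of 14579 genes were lower and 1.85% higher. They were Fasl (log2 difference -3.49 ± 0.26, limma adjusted p = 8.83e-06), Cd40lg (-2.11 ± 0.26, limma adjusted p = 0.000448) and Tnfsf4 (-1.47 ± 0.36, limma adjusted p = 0.0466). None was higher at an adjusted p under 0.05 (limma), with 1 at an unadjusted p under 0.05 and 0 with voom. Fasl and Cd40lg passed in 14 of 14 alternatives. The Fasl value ran from -1.93 with a pseudocount of 5, where that of Cd40lg was -1.95, to -5.12 with voom, so which of them differed more depends on the scale. Tnfsf4 was lost in 7 of its alternatives (adjusted p 0.0832 to 0.185): a pseudocount of 5, no filter, only the 6 libraries compared, and leaving out Th17 wild-type replicate 1 or 2 or Th1 wild-type replicate 1 or 3. Within GLUT3-deficient cells, 4 ligands were lower in Th17 and 1 was higher, where 2.56% and 3.35% of genes were. Lower were Fasl (-2.68 ± 0.26, limma adjusted p = 5e-05), Cd40lg (-2.38 ± 0.26, limma adjusted p = 0.000126), Lta (-1.03 ± 0.14, limma adjusted p = 0.000672) and Tnf (-1.27 ± 0.30, limma adjusted p = 0.027). Tnfsf8 was higher (1.88 ± 0.20, limma adjusted p = 9.89e-05). Tnf lost its call with no filter and without Th17 deficient replicate 1 or 3 or any of the 3 Th1 deficient libraries (adjusted p 0.0528 to 0.131). Leaving out the library that stood apart ended no ligand call in this comparison or in the interaction. The median over all genes was 0.14 in wild type and 0.13 in deficient cells, and median-of-ratios scaling moved it to -0.01 and -0.02. With that scaling the counts of all genes went from 270 higher and 259 lower to 213 and 374 in wild type, and from 488 and 373 to 478 and 534 in deficient cells. The median of the 10 ligands was 0.11 in wild type and -0.21 in deficient cells.

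The order of the 4 groups differed between ligands. For Lta it ran from Th1 deficient through Th17 deficient and Th17 wild type to Th1 wild type, with no overlap between neighbours. For Fasl it ran from Th1 deficient through Th1 wild type and Th17 deficient to Th17 wild type, also with no overlap. For Tnfsf9 the Th17 and Th1 wild-type groups overlapped, and for Tnf both wild-type groups overlapped with each other and Th17 wild type with Th17 deficient. For Tnfsf8 only the wild-type groups overlapped, and for Cd40lg only the genotypes within each lineage. For Tnfsf14 the genotypes overlapped within each lineage, and so did the wild-type groups of the lineages. For Tnfsf4 the gap between neighbours was that of Th1 over Th17 wild type. For Ltb and Tnfsf11 every pair of neighbours overlapped.

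The test of the difference between the genotype effects passed for 1 ligand in each direction, Tnfsf8 and Lta, where 0.350% of 14579 genes passed higher and 0.288% lower. The median of the 10 was 0.19, beside 0.00 over all genes. For the other 8 the adjusted p was 0.252 or more.

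The receptors of these ligands changed in part. In Th17, 1 of 9 tested rose and 0 fell (limma; 0 lower at an unadjusted p under 0.05 and 0 with voom), with a median of 0.70; in Th1, 5 of 9 rose and 0 fell (1 lower at an unadjusted p under 0.05, 0 with voom), with a median of 0.59. Over all genes 4.60% rose in Th17, and 17.6% rose and 13.7% fell in Th1. Tnfrsf11b in both lineages and Cd40 in Th1 reached the filter only with the deficient libraries, so their calls add nothing to these counts. Without the library that stood apart, Tnfrsf11b was below the filter in Th17, and 1 of 8 receptors tested rose, Tnfrsf1a (0.73 ± 0.19, limma adjusted p = 0.0365). Tnfrsf11b (osteoprotegerin, the decoy receptor for the Tnfsf11 product) was under 1 TPM on average in both wild-type groups. It went from 0.450 ± 0.244 (SD, n = 3) to 22.9 ± 4.55 TPM in Th17 and from 0.318 ± 0.187 to 6.73 ± 1.5 TPM in Th1. On the log2 scale the genotype difference was 4.04 ± 0.28 (limma adjusted p = 0.00109) and 2.54 ± 0.20 (limma adjusted p = 9.47e-05). Tnfrsf11a, the signalling receptor for the same ligand, did not exceed 0.0891 TPM in any library. Tnfrsf9, the receptor of the Tnfsf9 product, was 812, 313 and 201 TPM in Th17 wild type and 1150, 920 and 888 TPM in Th17 deficient libraries. Th1 libraries held 1020, 560 and 450 TPM in wild type and 2170, 1780 and 1850 TPM in deficient libraries. It rose in Th1 (1.6 ± 0.27, limma adjusted p = 0.00255), and in Th17 its value was 1.40 ± 0.48 (limma adjusted p = 0.126). Tnfrsf1a, the death-domain TNF receptor, rose in Th1 (1.47 ± 0.20, limma adjusted p = 0.00101), and in Th17 its value was 1.05 ± 0.32 (limma adjusted p = 0.0943). Tnfrsf8, the receptor of the Tnfsf8 product, rose in Th1 by 0.59 ± 0.18 (limma adjusted p = 0.0328). It did not pass in Th17, at 1.38 ± 0.67 (limma adjusted p = 0.251). Cd40, a receptor of B cells and dendritic cells, rose in Th1 too (1.76 ± 0.50, limma adjusted p = 0.0284), from 1.44 ± 1.20 to 7.68 ± 4.71 TPM. Tnfrsf4, the OX40 receptor, stood at 2320 to 5440 TPM in the 12 libraries and did not pass in either lineage. Ltbr, the receptor of the lymphotoxin heterotrimer and of LIGHT, was at most 1.11 TPM, and Fas did not pass in either lineage (0.51 ± 0.33 in Th17, limma adjusted p = 0.377, and 0.49 ± 0.26 in Th1, limma adjusted p = 0.18).

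Other genes of the pathway were counted too, beside the 4.60% of all genes that rose and 2.70% that fell in Th17, and the 17.6% and 13.7% in Th1. Of the other family ligands, 2 of 3 tested rose in Th17 (Cd70 and Tnfsf13b), but both reached the filter only with the deficient libraries, so these calls add nothing to the count. In Th1, 2 of 2 rose (Cd70 and Tnfsf10). Of the proteases that release ligands and their partners, 0 of 3 passed in Th17 (0 at an unadjusted p under 0.05 and 0 with voom) and 4 of 4 rose in Th1: Rhbdf2 (2.00), Mmp9 (1.51), Adam10 (1.34) and Adam17 (0.72), where Adam17 is the enzyme that sheds TNF and Rhbdf2, an inactive rhomboid, takes it to the cell surface. Mmp9 reached the filter only with the deficient libraries. Of the receptor adaptors and death signalling genes, 0 of 13 passed in Th17 (1 at an unadjusted p under 0.05, 0 with voom) and 4 of 12 rose in Th1, namely Birc2 (0.98), Casp8 (0.63), Traf1 (0.97) and Ripk1 (0.61). Of 17 NF-kappaB genes, 1 rose in Th17 (Nfkb1, 1.30), and in Th1 5 rose and 1 fell, among them Nfkb2 (1.37), Tnip1 (1.25), Nfkbib (0.94) and Tnip3, which fell by 3.97 on the log2 scale. Of 7 NFAT and calcineurin genes, 0 passed in either lineage with limma, 1 and 3 were past an unadjusted p of 0.05, and 1 and 0 with voom. Of the factors that bind AU-rich or stem-loop transcripts, most of which speed decay while Elavl1 stabilizes, 1 of 8 rose in Th17 and 2 of 7 in Th1, where 1 of these (Rc3h2) reached the filter only with the deficient libraries. Zfp36 was in both, going from 26.3 ± 3.72 to 75.9 ± 11.1 TPM in Th17 (1.49 ± 0.22, limma adjusted p = 0.0118) and from 26.6 ± 1.11 to 50.9 ± 5.71 TPM in Th1 (0.90 ± 0.15, limma adjusted p = 0.00216). Without the library that stood apart, Cd70 was the 1 of 1 other ligands that rose in Th17. In that fit 3 of 17 NF-kappaB genes rose and 1 fell, 1 of 7 NFAT and calcineurin genes rose and 1 fell, 3 of 8 binders of AU-rich or stem-loop transcripts rose, 0 of 13 adaptor and death signalling genes rose and 1 fell, and 0 of 3 proteases and partners passed, beside 7.76% and 8.44% of all genes.

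**Figure D5:**
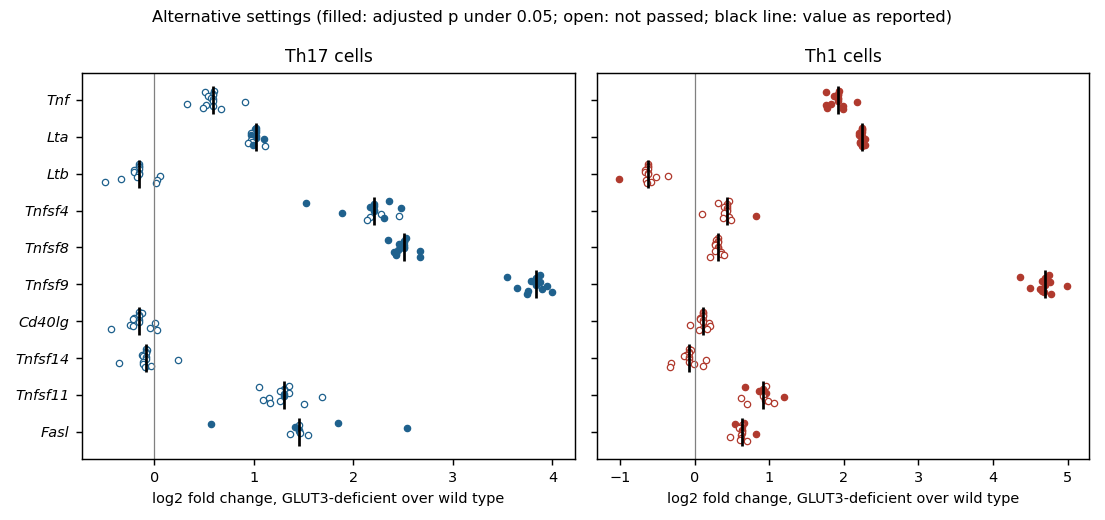
Log2 fold change of GLUT3-deficient over wild type (x axis) for each ligand (y axis) in Th17 (left) and Th1 (right) under each alternative setting; filled points passed, open points did not, and the black line is the value as reported. All points of Tnfsf9 are filled in both panels, those of Tnfsf8 are filled only in Th17, and those of Tnf only in Th1.

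The genes whose level over the 12 libraries was most like a ligand were found by Pearson's r of log2(TPM + 1) over 8254 genes, for the 3 ligands with the widest range of group means. For Tnfsf9 they were Vamp3 (r = 0.989), Rab12 (0.986) and Cfl2 (0.986). For Fasl they included Ifng (0.974) and Tbx21 (0.973), the cytokine and the master transcription factor of Th1 cells. For Tnfsf8 they were Tmem38b (0.970), Calhm6 (0.954) and Rac3 (0.951). The points are 12 libraries in 4 groups, so r largely follows differences between the groups, and these values describe likeness only.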

How the data were processed

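The authors deposited 1 table per lineage with TPM, a length-corrected transcript abundance, and a combined exon length for 45703 genes, and the 12 columns were matched to samples by their titles. Full-length cDNA was made with SMART-Seq and tagged with Nextera XT, which do not mark the strand, per the labels' protocols. The build GRCm38.p6 and the tools STAR 2.7.2b, DESeq2 1.24.0, featureCounts 1.6.4 (Subread), cutadapt and bcl2fastq 2.20.0.422 are listed without a role in the submitters' processing notes. TPM multiplied by exon length gave whole reads within 0.02 for 100.0% of values, and replicates differed by a chi-square of 13.1 or more per gene.

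The test was limma 3.58.1 (R 4.3.3) on log2(TPM + 1), for genes that reached 1 TPM in 3 or more of the fitted libraries (trend, two-sided, Benjamini-Hochberg over all genes, threshold 0.05), since the files hold TPM and not counts. The genotypes were compared on the 6 libraries of a lineage, and the interaction and the lineages in 1 model of 12 libraries. All 10 ligands are named. Of other listed genes, at most the 4 with the smallest adjusted p that passed are named, with the receptor of each ligand described. Genes that limit the reading of a count are named besides. A result that these rules would name is not reported here. The ligands and lists were chosen with earlier results of these data known. Alternatives were pseudocounts of 0.5 and 5, no filter, a filter of 5 TPM, median-of-ratios scaling, voom on recovered reads, the replicate number as a block, another set of libraries in the fit, and leaving out each library.

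Deviations from the group means of same-numbered libraries correlated at 0.14, 0.41 and 0.23 between the Th17 genotypes and at 0.72, 0.26 and 0.53 between the wild-type lineages. Differently numbered libraries reached 0.11 and 0.28 in these comparisons. Same-numbered libraries correlated at 0.16, 0.21 and -0.07 between the Th1 genotypes, where differently numbered ones reached 0.16. Between the deficient lineages the values were 0.22, -0.04 and -0.19, against up to 0.22 for differently numbered libraries. Matching numbers were thus not alike throughout. The main tests did not take the numbers as pairs, and the replicate block was an alternative only. Steps were tested on simulated data.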

Additional observations from a re-analysis of the deposited data

Results flagged for a closer look

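The genotype effect differed between the lineages for a pair of ligands, by the interaction term of the model of 12 libraries. For Lta the log2 fold change in Th17 minus that in Th1 was -1.24 (limma adjusted p = 0.0176): it rose in both lineages, from 480 ± 49.0 to 972 ± 115 TPM in Th17 and from 413 ± 18.4 to 1972 ± 97.9 TPM in Th1 (SD, n = 3). For Tnfsf8 it was 2.19 (limma adjusted p = 0.00465), from 27.6 ± 5.70 to 162 ± 29.9 TPM in Th17 and from 34.2 ± 1.71 to 43.1 ± 6.10 TPM in Th1. The Lta value was lost in 8 of 19 alternatives and the Tnfsf8 value in 0 of 19.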

How the results depend on the processing

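Calls of single ligands that ended are given with each ligand above. The number of ligands called went from 5 to between 2 and 4 in Th17 and to between 3 and 5 in Th1 when 1 library was left out. In the same fits the calls over all genes ran from 86 to 1034 higher and 15 to 1124 lower in Th17 (636 and 373 with all libraries), and from 1369 to 2599 higher and 1197 to 1988 lower in Th1 (2374 and 1846). The ligand counts hold both directions, and their members changed. Without Th1 wild-type replicate 3, Fasl and Tnfsf11 were lost in Th1, while Tnfsf4 passed as higher and Ltb as lower. In Th17, leaving out any deficient library took Fasl below the filter, so it was not tested there. In Th1 the number of ligands was 3 with no filter and 3 with all 12 libraries in the model. For the interaction it went from 2 to 1 with median-of-ratios scaling, to 1 with voom, and to between 1 and 2 when 1 library was left out. Values that changed sign did not pass in any setting: with 1 library left out, the Th17 genotype value ran from -0.50 to 0.06 for Ltb, -0.44 to 0.03 for Cd40lg and -0.36 to 0.24 for Tnfsf14. In Th1 it ran from -0.33 to 0.16 for Tnfsf14 and -0.06 to 0.21 for Cd40lg. The interaction of Tnfsf14 ran from -0.29 to 0.32, and was 0.00 at a pseudocount of 0.5, 0.01 with median-of-ratios scaling and 0.05 with voom. Between lineages in wild type, Tnf was -0.10 with that scaling, -0.12 with voom and -0.26 to 0.32 with 1 library left out, and Tnfsf9 was -0.01, -0.01 and -0.06 to 0.44. Of the other ligand values, 668 kept their direction and side of the threshold, 50 were lost and 4 gained. With the replicate number as a block, Tnfsf11 passed in Th17 (adjusted p = 0.0443), for 6 ligands there, and no other ligand call changed. In Th1 the same-numbered libraries of the genotypes correlated at 0.16, 0.21 and -0.07. The block is read as an alternative setting and not as a known pairing in either lineage. Depth limits Fasl in Th17 wild type, with 7 to 17 reads a library, which covers counting error only.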

Other observations

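Wild-type replicate 1 held the highest value of its group in both lineages for 6 of the 10 ligands (Tnf, Lta, Ltb, Tnfsf9, Tnfsf14 and Tnfsf11). Replicate 3 did so for 1 (Tnfsf4) and replicate 2 for 0. The share of all genes that were highest in replicate 1 was not counted. Over all genes that passed the low filter, the deviations of wild-type replicate 1 correlated at 0.72 between Th17 and Th1. Slc2a3 was also highest in wild-type replicate 1, at 379 TPM in Th17 and 398 TPM in Th1. A link between Slc2a3 and the ligands across replicates was not tested. The short word ATTTA, a shorter form of the AU-rich sequence, occurred 10 times in the longest 3′ untranslated region of Tnfsf8, 8 times in that of Tnf, 6 times in that of Tnfsf11 and 3 times in that of Lta. It occurred 2 times in those of Tnfsf4, Tnfsf9 and Cd40lg, 1 time in those of Tnfsf14 and Fasl, and 0 times in that of Ltb; these regions differ in length.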
